A study of Mus musculus with 8 samples.

Results

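Guidance molecules steer growing axons and sprouting vessels, and the genes described here are the semaphorins of classes 3 to 7, the plexins, the ephrins and Eph receptors, and the Slit, Robo, netrin and UNC5 genes. They were found by gene name in a deposited table of 30445 genes, which gave 68 members. Of these, 65 list a protein-coding transcript. The others are Plxna4os1 and Plxna4os2, both antisense to Plxna4, and Robo3, which the table annotates only with a retained intron and nonsense-mediated decay. The name pattern also takes in Unc5cl, an UNC5-like gene. The libraries hold messenger RNA from mouse hearts taken 8 weeks after surgical constriction of the transverse aorta, in which a suture narrows the aorta and the left ventricle must pump against high pressure. One group is wildtype and the other is labelled Mertk knockdown, with 4 libraries each, and both consist of operated C57 mice. The study asked what the macrophage engulfment receptor MERTK does in the overloaded heart. How Mertk was lowered, in which cells, and whether each library came from its own mouse is not given in the labels. The p-values set the group difference against the spread between libraries, which may be technical.

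Most of these families work as ligand and receptor on neighbouring cells. Class 3 semaphorins are secreted and act through plexins, mostly together with neuropilins as co-receptors, while the semaphorins of classes 4 to 6 span the membrane and semaphorin 7A is anchored to it by a lipid. Plexins switch off small GTPases of the Ras family inside the cell, so that adhesions and the actin skeleton come apart. Ephrins are themselves bound to the cell surface, and both the ephrin-bearing and the Eph-bearing cell can respond. Slits signal through Robo receptors and netrins through UNC5 and DCC receptors. In the heart these genes are best known from vessel patterning, from the septation of the outflow tract and from the ingrowth of sympathetic nerves. Plexin D1 is a receptor of the endothelium, ephrin-B2 and EphB4 mark arterial and venous endothelium, and ROBO4 is an endothelial receptor.

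Library totals ran from 59287621 to 71571173 counts. Levels are given below as CPM, which are counts scaled to a common library size with TMM factors, and as FPKM where genes are compared with each other, since FPKM divides by gene length. A count of 0 in the library with the fewest reads allows a level of up to 0.0521 CPM, counting error only. Mertk, the targeted gene, was at 10.4 to 12.3 CPM in the wildtype libraries and at 10.6 to 12.8 CPM in the labelled libraries. Its log2 difference (the fitted log2 fold change, labelled knockdown minus wildtype) was 0.10 (SE 0.11, adjusted p = 0.766 by edgeR), so the groups are not separated by this gene, and directions follow the labels. The 10 cardiomyocyte markers were all detected and summed to 44000 to 55500 CPM in wildtype and 57510 to 64630 CPM in the labelled group. Transcripts of 12 hepatocyte markers summed to 210 to 280 CPM in the labelled group. Among the wildtype libraries, replicate 1 had 276 CPM and the other 3 had 40.4 to 45.3 CPM. The summed level of 8 atrial markers was 341 to 2356 CPM in wildtype and 205 to 2041 CPM in the labelled group, and most of it was Nppa in every library. Myl7, an atrial myosin light chain, was at 134, 57.5 and 197 CPM in wildtype replicates 3 and 4 and labelled replicate 4, and at or below 0.603 CPM in the other 5 libraries. Myl4 and Sln were high in the same 3 libraries. The part of cardiomyocyte markers in the results was not tested; fits with the hepatocyte and atrial levels are given below.

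Of the 68 guidance genes 58 had enough counts to be tested, and 1 of them, the receptor gene Plxnd1, rose in the labelled Mertk knockdown libraries. None fell: 0 were called lower by edgeR, against 7 lower at an unadjusted p under 0.05 and 1 lower by DESeq2. A gene was called at an adjusted p under 0.05 in the quasi-likelihood test of edgeR over all 17787 tested genes. By that rule 0.647% of all tested genes were called, 0.275% higher and 0.371% lower, and among the guidance genes 1.72%. With an unadjusted p under 0.05, 9 members were higher and 7 lower, which is 15.5% and 12.1%, where all tested genes gave 6.11% and 6.32%. The CPM of the groups did not overlap for 3 higher and 4 lower members, or 5.17% and 6.9%, where all tested genes gave 4.18% and 3.9%. By DESeq2, 3 members were higher and 1 was lower, with 1.65% of all its tested genes higher and 2.07% lower. The members were chosen with earlier results of these data known, so none of these comparisons of shares carries a test. The same shares over all tested genes stand beside the counts of each family below.

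Estimates lay on both sides of 0: 28 tested members had a log2 difference above 0 and 30 below, with a median of −0.03, beside −0.00071 over all tested genes. The sign of that median depends on the setting: it was 0.17 with the hepatocyte covariate, 0.15 among the libraries with hepatocyte transcripts and 0.08 with the atrial covariate. Ligands lay more often below 0 (21 of 32, median −0.11) and receptors, counted with the antisense gene Plxna4os1, more often above (17 of 26, median 0.18). That difference between ligands and receptors was not tested. For 43 of the 58 tested members the estimated change was under 0.5 in size on the log2 scale.

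**Figure D1:**
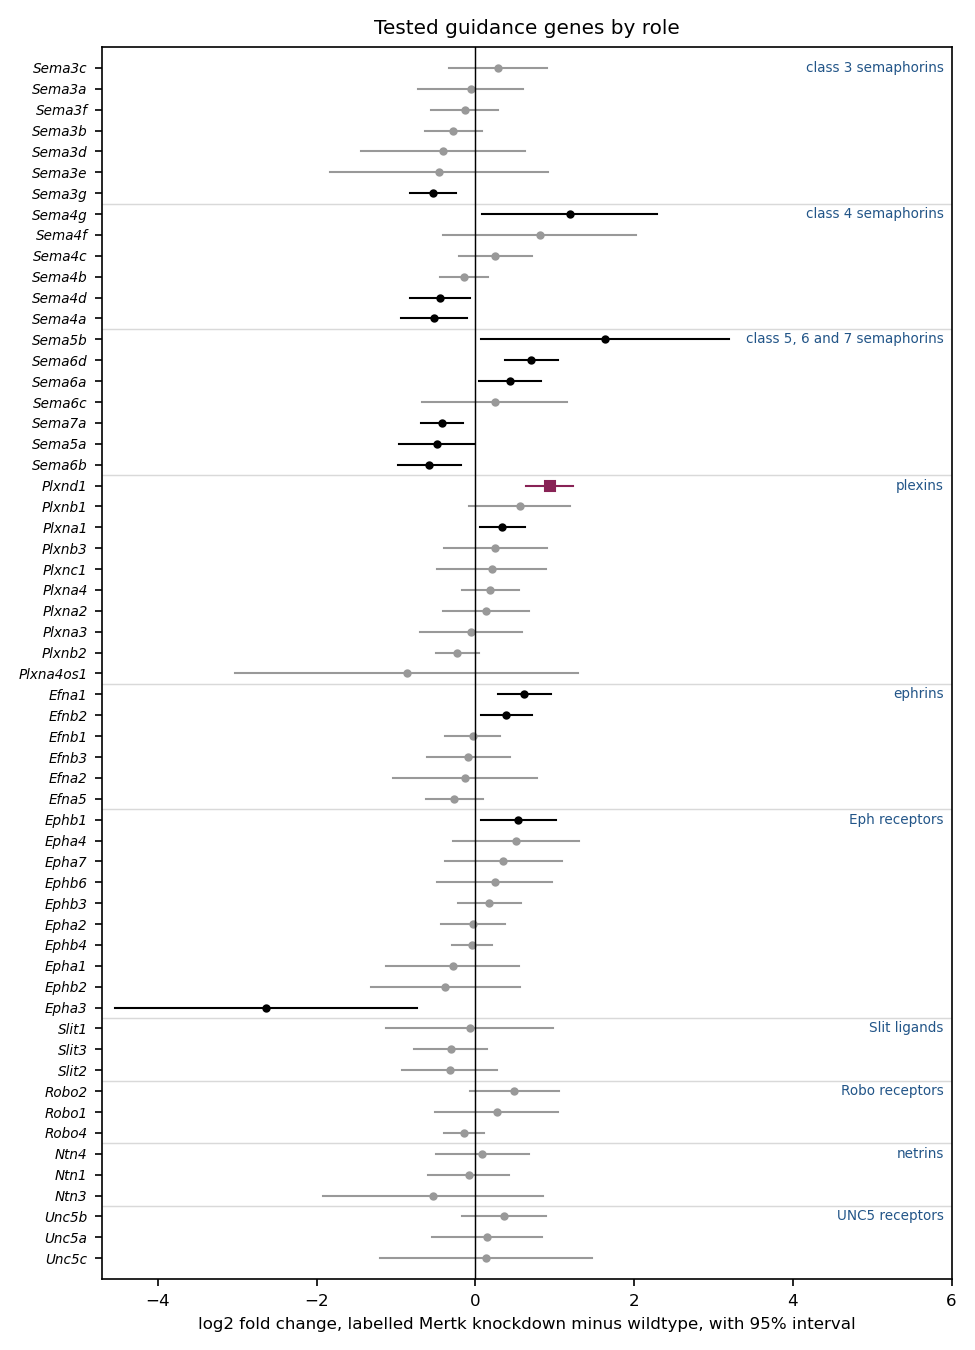
Log2 fold change (labelled Mertk knockdown minus wildtype) with its 95% interval for the 58 tested guidance genes, grouped by role. The square is Plxnd1, the called gene, at 0.93; black points have an unadjusted p under 0.05, and grey points do not.

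Per length, the highest members were receptors and ligands of several families. Plxnb2, a plexin of many cell types, had a mean of 18.4 FPKM over the 8 libraries, and Efnb3, encoding ephrin-B3, 16.7 FPKM. They were followed by Plxnd1 at 14.2 and Ntn1, encoding netrin-1, at 13.9 FPKM. Next came Ephb4 at 10.6, Sema7a at 9.15, Efna1 at 8.13, Robo4 at 7.26 and Sema3b at 6.88 FPKM. Neighbours in this order did not stand apart: the SD over the 8 libraries was 2.75 FPKM for Plxnb2, 3.85 for Efnb3, 5.39 for Plxnd1 and 3.44 for Ntn1. Within the labelled group Plxnd1 was at 18.8 ± 3.24 FPKM, close to Plxnb2 at 17.1 ± 2.49 FPKM, whereas in wildtype it was at 9.69 ± 1.58 and Plxnb2 at 19.8 ± 2.61 FPKM (SD, n = 4 each). In all, 31 of the 68 members reached a mean of 1 FPKM. The 10 members that were not tested were Efna3, Efna4, Epha5, Epha6, Epha8, Robo3, Ntn5, Unc5cl, Unc5d and Plxna4os2. They had 8 to 65 counts in all 8 libraries together, and each had no count in at least 3 libraries, so a change in them was not detectable at this depth.

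**Figure D2:**
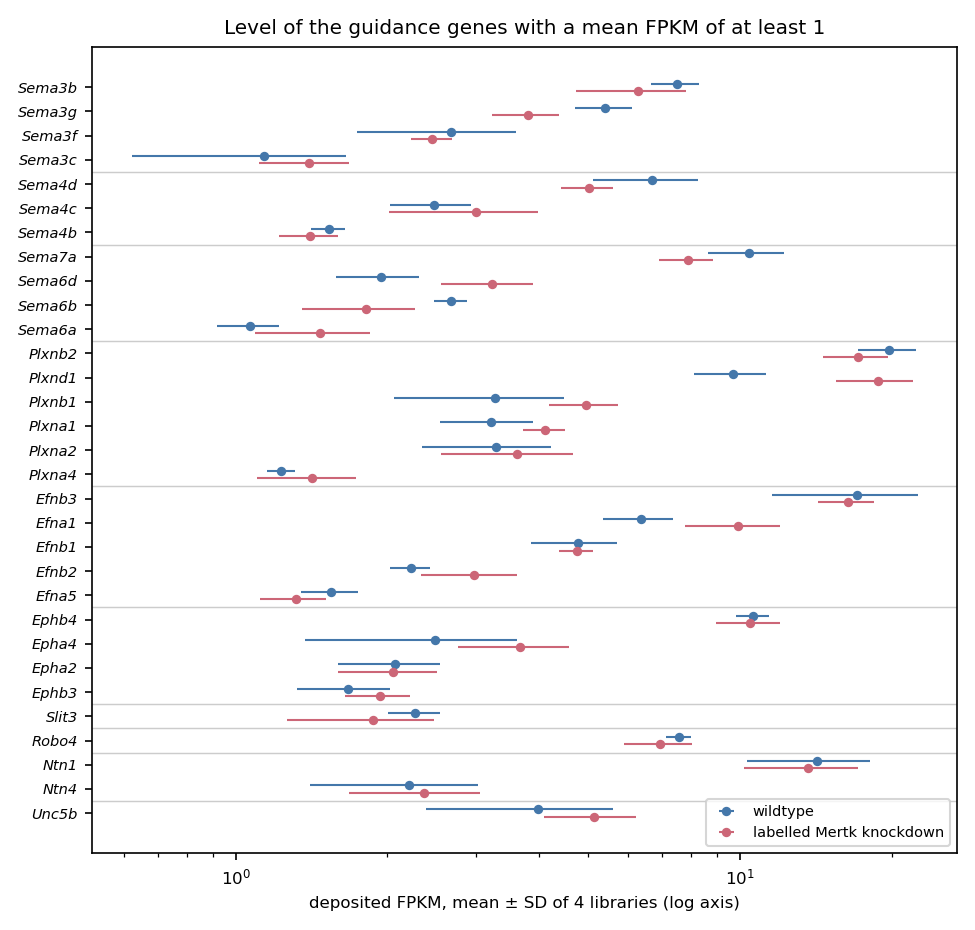
Deposited FPKM on a log axis (mean ± SD of 4 libraries per group) for the 31 guidance genes with a mean of at least 1 FPKM, ordered by role. Plxnd1 stands at 9.69 FPKM in wildtype and 18.8 FPKM in the labelled group, and for most other genes the bars of the groups overlap.

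Among the plexins, Plxnd1 rose 1.91-fold. Plexin D1 receives semaphorin 3E directly and other class 3 semaphorins through neuropilins, and restrains endothelial sprouting. The gene (ENSMUSG00000030123, minus strand of chromosome 6, 115954811 to 115995005, mm10) was at 69.7, 86.9, 70.2 and 85.6 CPM in wildtype replicates 1 to 4. In the labelled libraries it was at 119, 149, 173 and 157 CPM. The lowest labelled library thus lay above the highest wildtype one. Group means were 78.1 ± 9.44 and 149 ± 22.6 CPM (SD, n = 4 each), and the log2 difference was 0.93 (SE 0.13, 95% interval 0.64 to 1.23, adjusted p = 0.0159 by edgeR). The call held in each of the 8 fits that left out 1 library, with adjusted p from 0.0153 to 0.0497. It was lost with the hepatocyte marker level as a covariate (log2 difference 1.09, adjusted p = 0.226) and among the 5 libraries with hepatocyte transcripts (1.11, adjusted p = 0.134). In the latter only wildtype replicate 1 stood for its group and was assumed to vary like the labelled libraries. The estimate was larger in both, and its SE went from 0.13 to 0.21. The hepatocyte level follows the groups in every library except wildtype replicate 1. A difference that goes with that level and one that goes with the label therefore cannot be told apart here. On the log2(FPKM + 1) scale it was 0.88 (limma adjusted p = 0.0551).

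**Figure D3:**
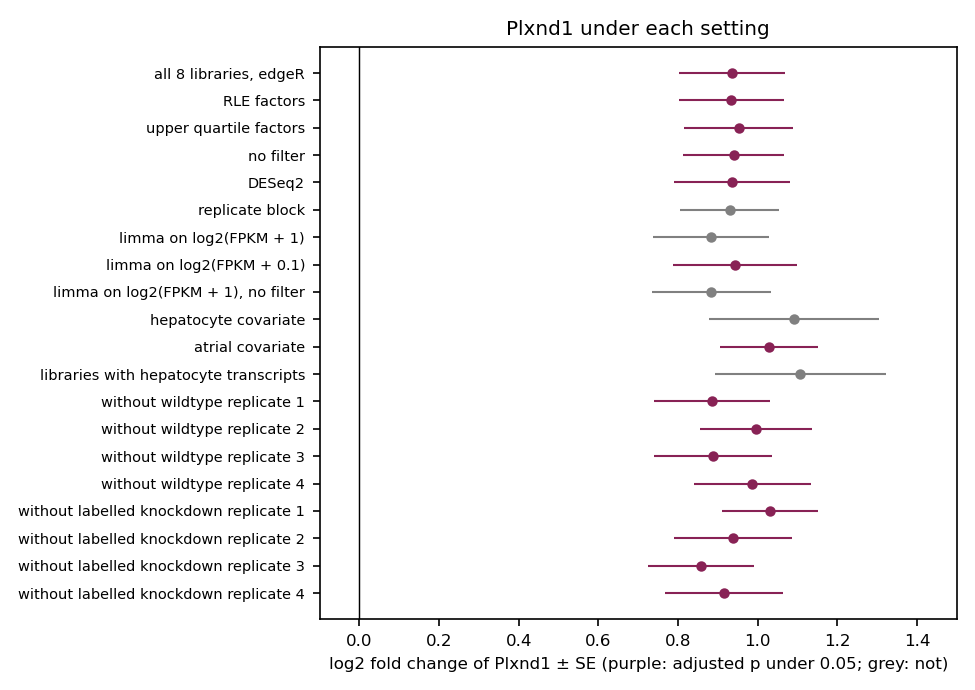
Log2 fold change of Plxnd1 ± SE with all 8 libraries in edgeR (top) and under 19 alternatives; purple points have an adjusted p under 0.05. All estimates lie between 0.86 and 1.11, and 14 of the 19 alternatives keep the call.

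Most markers of the endothelium lay in the same direction, and their part in the Plxnd1 result was not tested. The 10 endothelial markers summed to 896 to 945 CPM in wildtype and 981 to 1134 CPM in the labelled group, with no overlap and a log2 ratio of the means of 0.16. Of them 8 were above 0 (median log2 difference 0.27), 0 were called by edgeR, and none was at 0. In libraries from tissue, more cells of a type and more RNA per cell cannot be told apart. Set against that sum, Plxnd1 amounted to 7.505% to 9.20% in the wildtype libraries and to 11.8% to 16.0% in the labelled ones, again without overlap. This ratio is a description and no test, since Plxnd1 was picked for its rise and the sum rose less. Fabp4, the largest marker of the sum, had an estimate of −0.25, while Cldn5 and Kdr had 0.84 and 0.68. Pecam1, Tek and Vwf had 0.05, 0.13 and −0.03. Kdr alone went from a mean of 107 CPM in wildtype to 171 CPM in the labelled group, while the sum went from 926 to 1035 CPM. The rise of the sum thus rests largely on Kdr. Lymphatic endothelial markers (6 genes) summed to 91.9 to 107 CPM in wildtype and 111 to 124 CPM in the labelled group, although 4 of the 6 had estimates below 0 (median −0.25). Prox1 alone went from a mean of 38.2 to 64.2 CPM, while the sum went from 100 to 117 CPM. The higher sum thus rests on Prox1, and Mmrn1 (−0.85) lay lower without overlap. The pericyte and smooth muscle markers overlapped, at 875 to 1109 and 1053 to 1192 CPM.

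The co-receptors of plexin D1 had estimates above 0 that did not pass the test. Nrp1, encoding neuropilin-1, a co-receptor for class 3 semaphorins and VEGF, was at 57.2, 72.2, 49.4 and 57.5 CPM in wildtype and 76.6, 81.5, 95.6 and 87.4 CPM in the labelled group. Its log2 difference was 0.53 (SE 0.12, adjusted p = 0.109 by edgeR). Nrp2, encoding neuropilin-2, was at 25.9, 38.1, 23.8 and 32.6 against 42.3, 43.7, 52.6 and 51.5 CPM, with a log2 difference of 0.66 (SE 0.15, adjusted p = 0.102 by edgeR). For both genes the groups did not overlap. Kdr, which encodes the VEGF receptor VEGFR2 and is one of the endothelial markers above, was at 101 to 118 CPM in wildtype and 149 to 224 CPM in the labelled group (log2 difference 0.68, SE 0.14, adjusted p = 0.0742 by edgeR). DESeq2 called all 3 of them, with adjusted p of 0.00846, 0.00520 and 0.000433. Without wildtype replicate 2, edgeR called Nrp1 (adjusted p = 0.0412) and Nrp2 (0.0419). Nrp2 also passed with the atrial covariate (0.0340), and Kdr without a filter (0.0361). Sema3e, the direct ligand of plexin D1, was near the detection limit throughout: 0.237, 0.121, 0.312 and 0.272 CPM in wildtype and 0.136, 0.060, 0.298 and 0.191 CPM in the labelled group. At this depth a difference in Sema3e was not detectable (log2 difference −0.45, 95% interval −1.82 to 0.91).

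**Figure D4:**
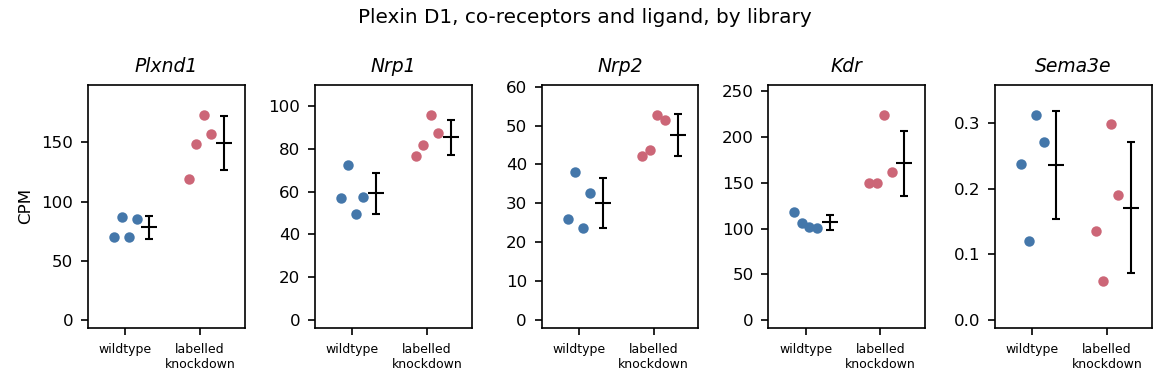
CPM of Plxnd1, its co-receptor genes Nrp1 and Nrp2, Kdr and the ligand gene Sema3e in each library (points), with the mean ± SD of each group of 4 in black. The groups separate in the first 4 panels, while Sema3e stays at or below 0.312 CPM and overlaps.

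The genes whose log2 CPM followed Plxnd1 most closely over the 8 libraries were Arhgef19, Sox12 and Aplnr. Arhgef19, a guanine nucleotide exchange factor, had a Pearson r of 0.990 (Spearman coefficient 1). Sox12, a transcription factor, had r = 0.985 (Spearman 0.952), and Aplnr, the apelin receptor of endothelial cells, r = 0.973 (Spearman 0.952). Without the 2 libraries farthest from the Plxnd1 median, labelled replicates 3 and 4, r was 0.990, 0.987 and 0.957. These 3 were picked as the highest of all tested genes, and the groups are separate in Plxnd1, so the values describe likeness and carry no test. With 4 libraries a group, no r within a group is given.

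The sequences before the starts of the 3 members that lay higher without overlap (Plxnd1, Sema6d, Efna1), and of the lower member with the smallest p (Sema3g), are shown because these are the genes on which the comparison turns. They are RefSeq windows of 250 bases upstream of the start, build GRCm38.p6, 5′ to 3′ on the gene's strand; 57 of the 68 members have an entry. Capitals mark matches, on either strand, to 4 motifs. The motifs were the GC box GGGCGG, the ACGTG form of the hypoxia response element core, the STAT site TTCNNNGAA and an interferon response element core GAAANNGAA. The GCGTG form of the hypoxia core was not searched and stays in lower case, as in the Plxnd1 window. The Plxnd1 window is chr6:115995006-115995255 (minus strand) and the Sema6d window chr2:124089719-124089968 (plus strand), both ending at the start given in the deposited table. The Efna1 window is chr3:89280952-89281201 (minus strand). Its RefSeq start lies 191 bases inside the gene as the deposited table gives it, so most of this window is within that gene. The Sema3g window is chr14:31217623-31217872 (plus strand), whose RefSeq start lies 13 bases inside the gene of the table.
Plxnd1: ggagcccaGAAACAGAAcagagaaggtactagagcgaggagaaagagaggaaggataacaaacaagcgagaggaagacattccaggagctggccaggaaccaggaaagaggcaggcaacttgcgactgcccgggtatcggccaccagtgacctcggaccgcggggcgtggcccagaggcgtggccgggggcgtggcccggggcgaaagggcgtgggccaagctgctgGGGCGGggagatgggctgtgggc
Sema6d: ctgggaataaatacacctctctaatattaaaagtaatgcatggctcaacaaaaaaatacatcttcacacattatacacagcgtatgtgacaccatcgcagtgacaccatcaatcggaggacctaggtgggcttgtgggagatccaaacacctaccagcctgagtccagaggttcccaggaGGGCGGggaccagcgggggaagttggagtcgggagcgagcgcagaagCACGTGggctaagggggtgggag
Efna1: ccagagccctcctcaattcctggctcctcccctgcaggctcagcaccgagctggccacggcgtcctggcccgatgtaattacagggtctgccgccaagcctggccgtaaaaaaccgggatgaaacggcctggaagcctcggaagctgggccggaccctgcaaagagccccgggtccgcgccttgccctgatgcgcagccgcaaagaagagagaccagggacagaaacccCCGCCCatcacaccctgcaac
Sema3g: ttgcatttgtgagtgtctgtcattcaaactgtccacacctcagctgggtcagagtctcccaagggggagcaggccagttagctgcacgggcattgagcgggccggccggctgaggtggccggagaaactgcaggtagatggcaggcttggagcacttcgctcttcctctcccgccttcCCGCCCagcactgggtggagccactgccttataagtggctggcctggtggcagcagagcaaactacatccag
Each of the 4 windows held 1 GC box, a motif found in 32.7% of all 32851 windows of the table. The Plxnd1 window held 1 match to the interferon response element core (7.13% of all windows). The Sema6d window held 1 palindromic site that reads as ACGTG on both strands (16.6%). None of the 4 held the STAT site (7.02%). A match describes these letters only.

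The other plexins did not pass the test. Plxnb2 was at 181, 188, 154 and 153 CPM in wildtype and 128, 175, 137 and 139 CPM in the labelled group. The groups overlapped, and the log2 difference was −0.22 (95% interval −0.50 to 0.05). Plxna1, a receptor for class 3 semaphorins with neuropilins and for SEMA6D, was at 29.1, 40.7, 28.9 and 29.8 CPM against 38.2, 44.3, 36.7 and 43.3 CPM. Wildtype replicate 2 reached into the labelled range (log2 difference 0.34, SE 0.13, adjusted p = 0.306 by edgeR). Plxnb1, the main receptor of semaphorin 4D, had an estimate of 0.56 (SE 0.28, adjusted p = 0.476 by edgeR). Plxna2, Plxna3, Plxna4, Plxnb3 and Plxnc1 had estimates between −0.05 and 0.25. Plxna4os1, antisense to Plxna4, had 129 counts in all and an estimate of −0.865 (SE 0.97). The use of strand in counting is not stated here, so reads of Plxna4 and its antisense genes may be shared.

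Class 3 semaphorins, the secreted ligands, lay mostly below 0: 6 of the 7 had estimates under 0 (median −0.28), and 0 were called by edgeR in either direction. Sema3g alone had an unadjusted p under 0.05, and DESeq2 called the same gene. Sema3g, an endothelial semaphorin of arteries, was at 31.6, 27.5, 24.9 and 24.7 CPM in wildtype and 18.2, 21.2, 20.9 and 15.1 CPM in the labelled group. The highest labelled library was below the lowest wildtype library. The log2 difference was −0.53 (SE 0.13, 95% interval −0.82 to −0.24), with an edgeR adjusted p of 0.124 and a DESeq2 adjusted p of 0.0184. Sema3b, the most abundant of the class per length, was at 36.8, 43.9, 43.6 and 34.8 against 29.7, 45.0, 29.9 and 26.8 CPM. Labelled replicate 2 reached above all wildtype libraries there (log2 difference −0.28, SE 0.16, adjusted p = 0.545 by edgeR). Sema3c and Sema3d, known from outflow tract and vein patterning, had estimates of 0.29 and −0.41 with SE of 0.28 and 0.46. Sema3f, which acts mainly through neuropilin-2, had −0.13, and Sema3a, a repellent of sympathetic axons, −0.06.

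Of the 6 class 4 semaphorins, which span the membrane and act on plexin B receptors and on immune cells, 0 were called by edgeR, with 1 higher and 2 lower at an unadjusted p under 0.05. Sema4d, the most abundant of them, was at 75.5, 41.8, 60.7 and 50.7 CPM in wildtype and 37.3, 48.0, 43.1 and 39.9 CPM in the labelled group. Labelled replicates 2 and 3 exceeded wildtype replicate 2, so the groups overlapped (log2 difference −0.44, SE 0.17, adjusted p = 0.315 by edgeR). Sema4a, a semaphorin of immune cells that also binds plexin D1, was at 6.53, 4.65, 6.91 and 6.03 against 3.89, 4.94, 3.26 and 4.78 CPM. Here labelled replicates 2 and 4 exceeded wildtype replicate 2 (log2 difference −0.51, SE 0.19, adjusted p = 0.293 by edgeR). Macrophage markers (10 genes) summed to 267 to 415 CPM in wildtype and 226 to 278 CPM in the labelled group, with 10 of 10 estimates below 0 and none at 0; their part in these values was not tested. Sema4b, Sema4c, Sema4f and Sema4g had estimates of −0.14, 0.25, 0.81 and 1.19, the last 2 at means under 1 CPM.

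Among the semaphorins of classes 5 to 7, 6 of 7 had an unadjusted p under 0.05, 3 in each direction, and 0 were called by edgeR. Over all tested genes 6.11% were higher and 6.32% lower at that unadjusted p. The members were chosen with earlier results of these data known, so this count carries no test. Sema6d, a transmembrane ligand of plexin A1 known from the growth of the ventricular wall, was at 21.2, 27.9, 20.2 and 21.6 CPM in wildtype. In the labelled group it was at 32.3, 30.2, 43.6 and 42.4 CPM. The groups did not overlap, and replicates 3 and 4 of the labelled group were the highest. The log2 difference was 0.71 (SE 0.15, 95% interval 0.38 to 1.04, adjusted p = 0.0790 by edgeR). It passed with DESeq2 (adjusted p = 0.00185), without a filter (0.0422), with the atrial marker level as a covariate (0.0263) and without wildtype replicate 2 (0.0428).

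Sema7a, whose protein is held to the membrane by a lipid anchor and binds integrins and plexin C1, was at 37.2, 45.0, 32.8 and 36.8 CPM in wildtype. In the labelled group it was at 25.8, 31.9, 30.4 and 25.5 CPM. The groups did not overlap, by a margin of under 1 CPM (log2 difference −0.42, SE 0.12, adjusted p = 0.178 by edgeR). Sema6b, a ligand of A-type plexins, was at 12.5, 10.3, 12.3 and 12.0 against 7.15, 10.01, 8.88 and 5.49 CPM, also without overlap (log2 difference −0.58, SE 0.18, adjusted p = 0.206 by edgeR). Sema6a, its close relative, had an estimate in the other direction, 0.44 (SE 0.18, adjusted p = 0.348 by edgeR). Sema5a, Sema6c and Sema5b had −0.49, 0.24 and 1.63, the last at means of 0.394 and 1.22 CPM.

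**Figure D5:**
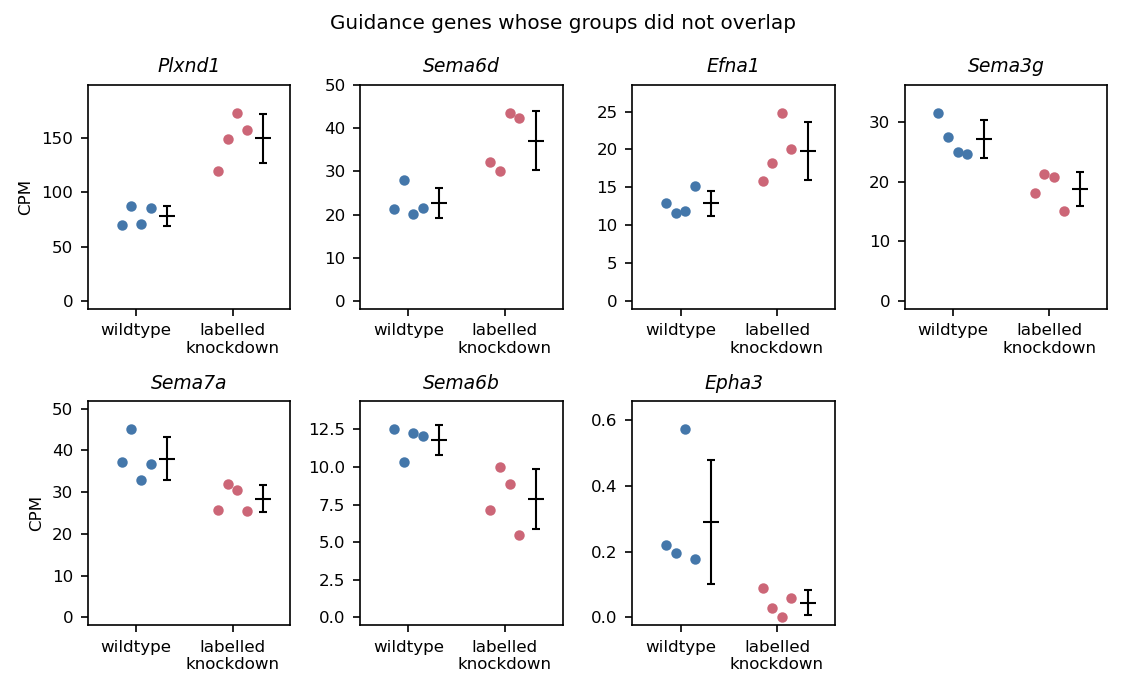
CPM in each library (points) and mean ± SD (black) for the 7 guidance genes whose groups did not overlap. Plxnd1, Sema6d and Efna1 lie higher in the labelled libraries, and Sema3g, Sema7a, Sema6b and Epha3 lie lower, with Epha3 at or below 0.573 CPM throughout.

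Of the 6 tested ephrins, 0 were called by edgeR, 2 were higher at an unadjusted p under 0.05 and 0 were lower. Efna1, encoding ephrin-A1, a ligand that tumour necrosis factor induces in endothelial cells, was at 12.9, 11.6, 11.9 and 15.2 CPM in wildtype. In the labelled group it was at 15.8, 18.2, 24.9 and 20.1 CPM. The groups did not overlap, with wildtype replicate 4 just below labelled replicate 1 (log2 difference 0.62, SE 0.15, 95% interval 0.28 to 0.95). The edgeR adjusted p was 0.121 and the DESeq2 adjusted p 0.0120. Efnb2, the ephrin of arterial endothelium, was at 19.2, 16.5, 16.6 and 15.5 CPM against 17.2, 21.7, 27.9 and 22.1 CPM. Labelled replicate 1 lay within the wildtype range (log2 difference 0.39, SE 0.14, adjusted p = 0.293 by edgeR).

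Efnb3, the most abundant ephrin per length, was at 67.8, 31.8, 67.0 and 74.7 CPM in wildtype and 51.6, 56.7, 65.6 and 53.3 CPM in the labelled group. Wildtype replicate 2 was low, and the interval of the log2 difference ran from −0.61 to 0.43. Efnb1, Efna2 and Efna5 had estimates of −0.04, −0.13 and −0.26.

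The Eph receptors as a family showed no called gene (0 of 10 tested by edgeR), with 1 higher and 1 lower at an unadjusted p under 0.05 and 5 estimates on either side of 0. Ephb4, the venous receptor of ephrin-B2 and the highest Eph gene per length, was at 60.5, 53.7, 54.2 and 50.5 CPM in wildtype and 48.6, 64.2, 53.0 and 46.8 CPM in the labelled group. Its log2 difference was −0.04 with a 95% interval of −0.29 to 0.21, so the change of Ephb4 was bounded more tightly than that of most members. Ephb1, a receptor of B-type ephrins, was at 2.82, 2.14, 2.93 and 3.61 against 3.35, 4.95, 4.73 and 3.74 CPM (log2 difference 0.54, SE 0.21, adjusted p = 0.329 by edgeR). Only wildtype replicate 4 reached into the labelled range.

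Epha3, a receptor of mesenchymal cells in the developing valves, had 85 counts over the 8 libraries. It was at 0.221, 0.196, 0.573 and 0.177 CPM in wildtype and at 0.090, 0.030, 0 and 0.059 CPM in the labelled group, where 2 of the 4 libraries lay below the limit of 3 counts. The estimate was −2.64 (SE 0.85, adjusted p = 0.233 by edgeR) and depends on how such low counts are treated: with log2(FPKM + 1) it was −0.03. Epha4, a receptor for ephrins of both classes, was at 22.6 ± 11.1 and 32.2 ± 7.38 CPM (SD, n = 4 each; log2 difference 0.51, SE 0.35). Epha2, the main receptor of ephrin-A1, was at 10.7 ± 1.97 and 10.5 ± 2.14 CPM, with an estimate of −0.02. Epha1 overlaps Zyx on the other strand, which has 32242 counts beside its own 343, so its estimate of −0.28 is uncertain. Epha7, Ephb2, Ephb3 and Ephb6 had estimates between −0.38 and 0.35.

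For Slit ligands and their Robo receptors the counts were 0 called of 3 and 0 called of 3 tested (edgeR), and 0 of either had an unadjusted p under 0.05. Slit3, a ligand known from heart and diaphragm formation and the highest Slit per length, was at 16.4, 14.6, 18.1 and 12.3 CPM in wildtype. In the labelled group it was at 9.83, 12.0, 9.78 and 17.9 CPM, where replicate 4 stood within the wildtype range (log2 difference −0.31, SE 0.20). Slit2 was at 3.08, 7.11, 5.00 and 6.82 against 3.32, 5.35, 3.85 and 5.06 CPM (−0.32, SE 0.27), and turned to 0.48 with the hepatocyte covariate. Slit1 was at or below 1 CPM, with an estimate of −0.07.

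Robo4, which keeps endothelial junctions stable, was at 45.9, 45.0, 43.5 and 43.4 CPM in wildtype and 40.3, 49.7, 36.8 and 34.7 CPM in the labelled group. The wildtype libraries were close to each other, and the log2 difference was −0.14 (95% interval −0.39 to 0.11). Robo2, a receptor of Slit2, was at 1.12, 1.49, 1.11 and 1.74 against 2.14, 1.45, 1.99 and 2.098 CPM (0.49, SE 0.25, adjusted p = 0.481 by edgeR). Robo1 had an estimate of 0.27 (SE 0.35).

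Netrins and UNC5 receptors had 0 called of 3 and of 3 tested (edgeR), and 0 with an unadjusted p under 0.05. Ntn1, the founding netrin, a secreted cue that attracts or repels according to its receptor, was at 107, 128, 97.9 and 64.1 CPM in wildtype. In the labelled group it was at 68.5, 122, 102 and 82.2 CPM, fully overlapping (log2 difference −0.08, 95% interval −0.59 to 0.43). Ntn3 was at 0.52, 0.453, 0.555 and 0.76 against 0.106, 0.423, 0.157 and 0.895 CPM (−0.53, SE 0.62) and lies within the span of Tbc1d24, which has 7934 counts beside its 257. Ntn4, a basement membrane netrin, had an estimate of 0.09 (SE 0.26).

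Unc5b, the repulsive netrin receptor of endothelial tip cells, was at 22.1, 42.3, 19.9 and 25.3 CPM in wildtype and 30.0, 32.3, 44.8 and 33.4 CPM in the labelled group. Wildtype replicate 2 was exceeded there by labelled replicate 3 alone (log2 difference 0.36, SE 0.23, adjusted p = 0.597 by edgeR). Unc5a was at 1.75, 4.04, 1.73 and 2.17 against 1.78, 2.87, 3.10 and 2.99 CPM (0.15, SE 0.31). It overlaps Hk3 on the other strand, which has 769 counts beside its own 1349 and an estimate of −1.19, so the Unc5a estimate is uncertain. Unc5c, under 0.6 CPM in every library, had 0.13 (SE 0.60). The attractive netrin receptor Dcc was not tested, with counts in 2 libraries only, and its relative Neo1, encoding neogenin, had an estimate of 0.05 (95% interval −0.25 to 0.36).

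Genes that act with the guidance families were taken from a list of 79, among them co-receptors, signal adaptors and proteases. Of the 75 tested, 1 rose and 0 fell (edgeR), 11 were higher and 2 lower at an unadjusted p under 0.05, and the median estimate was 0.05. Over all tested genes these shares are 0.275% and 0.371% called, and 6.11% and 6.32% at that unadjusted p, while the list gives 11 and 2 of 75. The list was chosen with earlier results of these data known, so this comparison carries no test. The gene that rose was Sh3kbp1, an adaptor of receptor uptake into the cell. It was at 42.9, 49.7, 46.2 and 50.2 CPM in wildtype and 72.5, 71.4, 71.6 and 66.0 CPM in the labelled group, with a wide gap between the groups. Its log2 difference was 0.57 (SE 0.08, adjusted p = 0.0181 by edgeR). Its call was lost in 9 of 19 alternatives, among them the fits without wildtype replicate 3 (adjusted p = 0.0601) or without labelled replicate 1 (0.0638), 2 (0.0582) or 3 (0.0585). Among the 36 adaptors, Srgap1, a GTPase-activating protein downstream of Slit and Robo, was at 2.17 to 3.00 CPM in wildtype and 3.53 to 4.29 CPM in the labelled group (0.70, SE 0.18, adjusted p = 0.136 by edgeR and 0.0174 by DESeq2), without overlap. Sipa1l1, a regulator of the GTPase Rap, was at 23.0 to 25.9 against 17.1 to 20.9 CPM (−0.37, SE 0.09, adjusted p = 0.135 by edgeR).

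Of the 6 proteases that cut guidance proteins, 0 were called or had an unadjusted p under 0.05. Adam17 had an estimate of 0.23, Furin, which processes class 3 semaphorins, −0.25, and Mmp14 0.54 (SE 0.38).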

How the data were processed

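The deposited table holds read counts per gene, which the authors made and did not normalize, and FPKM, which the authors scaled by gene length and library total, per the file headers. The submitters' processing notes name cutadapt 1.9, HISAT2 2.2.1, StringTie 2.1.6, DESeq2, edgeR and build mm10, with no role or order. The annotation release and the use of strand in counting are not given in the sources used here. Coordinates are those of the table.

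All 8 libraries were fitted on the whole table with edgeR 4.0.16 in R 4.3.3, using TMM factors, the filterByExpr filter and the two-sided quasi-likelihood test with robust dispersions and no covariates, and p-values were adjusted by Benjamini-Hochberg over all tested genes. A log2 difference is the fitted log2 fold change, labelled Mertk knockdown minus wildtype, and its SE is the size of that change divided by the square root of F. DESeq2 1.42.0 and limma 3.58.1 on log2(FPKM + pseudocount of 1 or 0.1) served as alternatives. The script was tested on simulated data. Each library was counted as a sample. Every pair of libraries in a group differed beyond counting noise (chi-square over its degrees of freedom, 37.9 or more). This cannot tell separate mice from separate preparations of the same heart. The members, gene lists and tests were chosen with earlier results of these data known. Values per library are given for called members, the most abundant member and the 2 members with the smallest p of each role, and members with an unadjusted p under 0.05 and no overlap. Of the gene list, Nrp1, Nrp2, Dcc, Neo1, called genes and the 3 with the smallest p in each group are named. One group of that list is not reported here.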

Additional observations from a re-analysis of the deposited data

Results flagged for a closer look

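Of 76 sets of 4 libraries screened (each named gene in each group), 7 held 1 library that stood far from the other 3 on a Dixon test; chance gives about 1 in 20. Sema3b was at 45.0 CPM in labelled knockdown replicate 2 and at 26.8 to 29.9 CPM in the other 3. Plxna1 was at 40.7 CPM in wildtype replicate 2, against 28.9 to 29.8 CPM. Epha3 was at 0.573 CPM in wildtype replicate 3, against 0.177 to 0.221 CPM. Dcc had counts only in wildtype replicate 3 (0.0694 CPM) and labelled knockdown replicate 4 (0.0880 CPM). Its flags were fixed by counts of 0 in the other 3 libraries of each group, so the chance rate above does not apply to them. Sh3kbp1 was at 66.0 CPM in labelled knockdown replicate 4, below the other labelled libraries at 71.4 to 72.5 CPM. Kdr was at 224 CPM in labelled knockdown replicate 3, against 149 to 161 CPM.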

How the results depend on the processing

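Plxnd1 kept its direction in all 19 alternatives and its call in 14. Guidance genes called higher, 1 as reported, were 2 without a filter, 3 by DESeq2 and 2 with the atrial covariate. They were 0 with the replicate block, with log2(FPKM + 1) with or without the filter, with the hepatocyte covariate and among the libraries with hepatocyte transcripts, and 1 to 2 when 1 library was left out. Guidance genes called lower were 0 except for 1 by DESeq2. Partner genes called higher, 1 as reported, were 2 without a filter, 5 by DESeq2, 2 with the atrial covariate, 0 in the same 5 settings as above, and 0 to 3 when 1 library was left out. With the replicate number as a block, Plxnd1 had 0.93 (adjusted p = 0.0527). Whether the numbers pair the libraries is not settled. Deviations of same-numbered libraries correlated at −0.0065 to 0.181, and those of differently numbered ones at −0.148 to 0.076. The highest value was that of the replicates numbered 4, while wildtype replicate 1 correlated best with labelled replicate 2. Over all genes, 115 were called as reported, 24 under that block, 11 with the hepatocyte covariate and 42 among the libraries with hepatocyte transcripts. They were 57 and 21 with log2(FPKM + 1) with and without the filter, 70 with log2(FPKM + 0.1), 604 by DESeq2 and 44 to 265 when 1 library was left out.

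The median log2 difference of the tested guidance genes, −0.03 as reported, ranged from −0.019 to 0.075 when 1 library was left out. The atrial covariate is the summed marker level, which is mostly Nppa. The estimates that changed sign were all of uncalled genes. Efnb3 had 0.0011 with log2(FPKM + 0.1) and 0.039 without wildtype replicate 4, with a range over left-out libraries of −0.2925 to 0.039. Slit2 had 0.48 with the hepatocyte covariate and 0.52 among the libraries with hepatocyte transcripts. Ephb4 had 0.010 and 0.021 without wildtype replicate 1 or labelled replicate 4 (range −0.145 to 0.021). Ntn1 had 0.071 and 0.044 without wildtype replicate 2 or labelled replicate 1 (range −0.2365 to 0.071). Neo1 had −0.029 among the libraries with hepatocyte transcripts, −0.019 without wildtype replicate 2 and −0.0082 without labelled replicate 4 (range −0.019 to 0.1651). The cause of these changes was not tested. Depth limits Epha3, Ntn3, Sema3e and the 10 untested members.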
